A study of Ovis aries with 30 samples.

Results

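The 10 genes GNAS, ADCY3, ADCY6, PRKACA, PRKACB, PRKAR1A, PRKAR2B, PDE4B, PDE4D and CREB1 encode components of cyclic AMP (cAMP) signalling, and their read counts were followed in brown adipose tissue (BAT) and thyroid tissue of new-born lambs. Members were chosen by gene symbol: 9 of the 10 symbols name a row of the deposited table of 28524 rows, and the GNAS row, which the table lists as LOC101115640, was found by its RefSeq gene ID (101115640). The lambs were 15 new-born Romney twins, 1 from each dam, brought indoors within a day or so of birth. There were 6 lambs kept at 4 °C for 2 days (cold), 6 lambs kept at 20 to 22 °C for 2 days (ambient temperature, AT), and 3 controls sampled around a day after birth with no stay at a set temperature. Perirenal BAT and thyroid tissue came from the same animals, so each lamb gives a pair of libraries and there are 30 in all. The study left out 1 control lamb for its outlying counts, identified here as lamb 238, so the comparisons rest on 14 lambs with 2 controls, lambs 237 and 246. The controls were about 2 days younger than the treated lambs, so age and the stay indoors cannot be told apart in any comparison with them. Lambs of like age are compared in cold against AT alone. The same 2 controls serve the cold and the AT comparison, which are therefore not independent of each other. Wherever a value is given without a control lamb, lamb 238 takes its place, so that 2 controls remain.

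cAMP is the intracellular messenger of many hormones. A receptor that couples to the stimulatory G protein activates its alpha subunit, GNAS, which switches on membrane adenylyl cyclases such as ADCY3 and ADCY6, and these make cAMP from ATP. cAMP binds the regulatory subunits of protein kinase A (PKA; here PRKAR1A and PRKAR2B) and sets free the catalytic subunits (PRKACA and PRKACB), which phosphorylate targets that include the transcription factor CREB1. The phosphodiesterases PDE4B and PDE4D break cAMP down. In brown fat this route carries the signal of noradrenaline through beta-adrenergic receptors to fat breakdown and heat production by uncoupling protein 1 (UCP1), and in the thyroid it carries the signal of thyrotropin to hormone synthesis and growth of follicular cells. The method measures messenger RNA, not cAMP or kinase activity.

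BAT libraries had total counts of 31556500 to 37025998 and thyroid libraries of 25062784 to 30124871, and the 2 most abundant genes of a library took 43.8 to 76.5% of the BAT counts and 12.8 to 27.8% of the thyroid counts. Thyroid libraries held 860170 to 3751600 normalized counts over 11 follicular cell markers, against 243 to 2776 in BAT, although SLC26A4 was at 0 in 13 of 14 thyroid libraries. In BAT, the 7 adipocyte markers summed to 47819 to 187030, against 727 to 6823 in thyroid tissue, and the 6 brown adipocyte markers in the file (of 7 listed) summed to 38957 and 48155 in the controls, 2318 to 28531 at AT and 9775 to 27816 in the cold, with ELOVL3 at 0 in 8 of 14. A few thyroid libraries stood apart: 9 of 10 listed skeletal muscle genes were in the file and summed to 2245800 in AT lamb 240, 200460 in control lamb 237 and 2613 in cold lamb 239, while no other thyroid library used was above 719. Parathyroid and C cell markers (7 genes) in thyroid tissue ran from 159 in lamb 245 to 167260 in lamb 241, with 119120 in lamb 239. Results that rest on lambs 237, 239, 240 and 246 are given below with and without them where the value or the call changes.

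On the Oar_rambouillet_v1.0 assembly, ADCY3 and ADCY6 lie together on chromosome 3 and PRKACB and PDE4B together on chromosome 1. Each of the other genes is the only member on its chromosome. GNAS is at chr13:59816084-59882399 on the minus strand and ADCY3 at chr3:33849030-33935781 on the minus strand, and the other 8 are annotated on the plus strand. ADCY6 is at chr3:147308653-147328562, PRKACA at chr5:9933156-9950342, PRKACB at chr1:65667133-65817760, PRKAR1A at chr11:1631136-1652145 and PRKAR2B at chr4:54142985-54253831. PDE4B is at chr1:44182132-44228116, PDE4D at chr16:20965490-21583548 and CREB1 at chr2:223764680-223820824. All counts were taken over annotated exons, whose joint length runs from 1672 bases in PRKACA to 12747 bases in PDE4D, the gene with the longest span (618.06 kb). In 8 of the 10 no exon base is shared with another gene of the table. The GNAS row shares 1111 exon bases with the neighbouring entry LOC101102411 on the same strand, which had a median of 52 counts, and ADCY3 shares 9 exon bases with CENPO on the opposite strand. The strand setting of the counting was not stated, so reads in the 9 bases shared by ADCY3 and CENPO cannot be assigned with certainty. Reads in the 1111 bases that GNAS shares cannot be separated by strand under any setting.

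Values per kilobase (kb) divide a count by the joint length of all annotated exons of the gene. Levels, ratios and shares that set different genes against each other, here and below, therefore depend on the annotation. Per kilobase of exon, with counts scaled over the 28 libraries of both tissues, GNAS was the most abundant of the 10 in each tissue. Its mean was 5241 ± 1053 (SD, n = 14) normalized counts per kb in BAT and 5352 ± 2156 in thyroid tissue. The regulatory subunit PRKAR1A followed with 1316 ± 101 in BAT and 1500 ± 487 in thyroid tissue. The order below PRKAR1A differed between the tissues. In BAT it continued with PRKAR2B (994), ADCY6 (558), PRKACA (202), CREB1 (125), PRKACB (83.0), PDE4B (46.9), ADCY3 (44.9) and PDE4D (8.23), all as mean normalized counts per kb. PRKAR1A and PRKAR2B did not differ beyond their spread there (PRKAR1A was the higher in 10 of 14 libraries), and neither did PDE4B and ADCY3 (7 of 14). In thyroid tissue it continued with PRKACA (238), ADCY6 (170), CREB1 (88.8), PRKAR2B (75.3), PRKACB (70.3), PDE4D (28.7), PDE4B (25.9) and ADCY3 (24.2). The neighbours PRKACA and ADCY6, CREB1 and PRKAR2B, PRKAR2B and PRKACB, PDE4D and PDE4B, and PDE4B and ADCY3 were within their spread in thyroid tissue, so the positions of the least abundant members are not resolved. Here and below, in whole tissue, fewer cells of a type and less RNA per cell cannot be told apart.

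**Figure D1:**
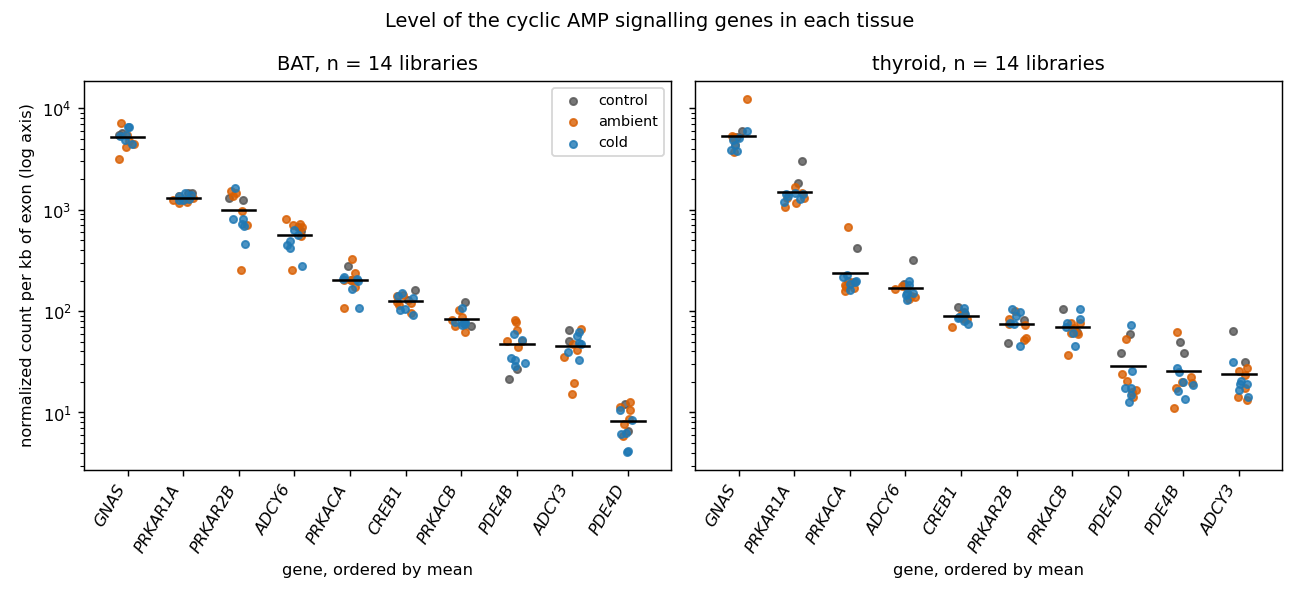
Normalized counts per kb of exon (log axis, scaled over 28 libraries) for the 10 genes in BAT and thyroid tissue, ordered by mean, each point 1 lamb coloured by treatment and each horizontal line the mean of 14. GNAS lies highest in each tissue, and PRKAR2B moves from a mean of 994 in BAT to 75.3 in thyroid tissue.

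Between the tissues, 6 of the 10 genes differed at an adjusted p under 0.05 in edgeR's quasi-likelihood test over 28 libraries, 4 higher in BAT and 2 lower. Of all 17017 genes tested, 71.0% passed the same threshold (44.5% higher and 26.6% lower in BAT), with a median log2 difference over all genes of 0.24, so the share of members that passed is not above the background. The contrast averages the 3 treatment groups, and its values are log2 fold changes (log2FC, BAT minus thyroid tissue) ± standard error. The fit had no term for lamb, so the paired libraries of a lamb entered as independent. With lamb as a block, the 6 members stayed called and PDE4B passed as well. The paper reports a lower mean RNA integrity and a larger share of mapped reads in BAT than in thyroid tissue. RNA quality thus goes with tissue in every comparison between the tissues, and its part was not tested.

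PRKAR2B, the RIIβ regulatory subunit known as the main PKA regulatory isoform of fat and brain, showed the widest gap between the tissues among the 10. Its normalized counts, scaled over 28 libraries, were 779 at the lowest, 2740 at the median and 5044 at the highest in BAT, and 141, 232 and 324 in thyroid tissue. The ranges do not overlap, as holds for 11.4% of all genes in that direction, and BAT was higher in 14 of 14 lambs. The difference was 3.84 ± 0.30, a 14.3-fold higher level in BAT (adjusted p = 1.51e-11). Within BAT the gene varied widely, and the lowest value belonged to AT lamb 245, whose library also had the lowest adipocyte marker sum (47819), the lowest brown adipocyte sum (2318) and the highest fibroblast marker sum (304350). The part of cell composition in that value was not tested. PRKAR1A, the RIα subunit, went the other way by a small amount. It had 4198 to 5227 normalized counts in BAT and 3793 to 10865 in thyroid tissue, lower in BAT in 9 of 14 lambs (log2FC −0.29 ± 0.09, adjusted p = 0.00537). Its call rested on control lamb 246, the highest thyroid value, and without that lamb the difference was −0.11 (adjusted p = 0.281).

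The regulatory subunits were also set against each other per kb within each library, where the size factor cancels. PRKAR1A exceeded PRKAR2B by a mean factor of 1.71 ± 1.13 (SD, n = 14) in BAT, with a range of 0.768 to 5.12, and by 21.4 ± 8.83 in thyroid tissue, with a range of 11.7 to 38.5. Among all 4 regulatory subunit genes, PRKAR2B made up 31.6% ± 9.63 of the per-kb counts in BAT and 3.98% ± 1.37 in thyroid tissue, and PRKAR1A 44.8% ± 8.28 and 74.5% ± 2.37. The remaining shares belonged to PRKAR2A (16.1% in BAT and 11.1% in thyroid tissue) and PRKAR1B (7.55 and 10.5%). A BAT library thus carried a mixed set of regulatory subunit transcripts, whereas every thyroid library was dominated by PRKAR1A, which took at least 70.2% in each.

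**Figure D2:**
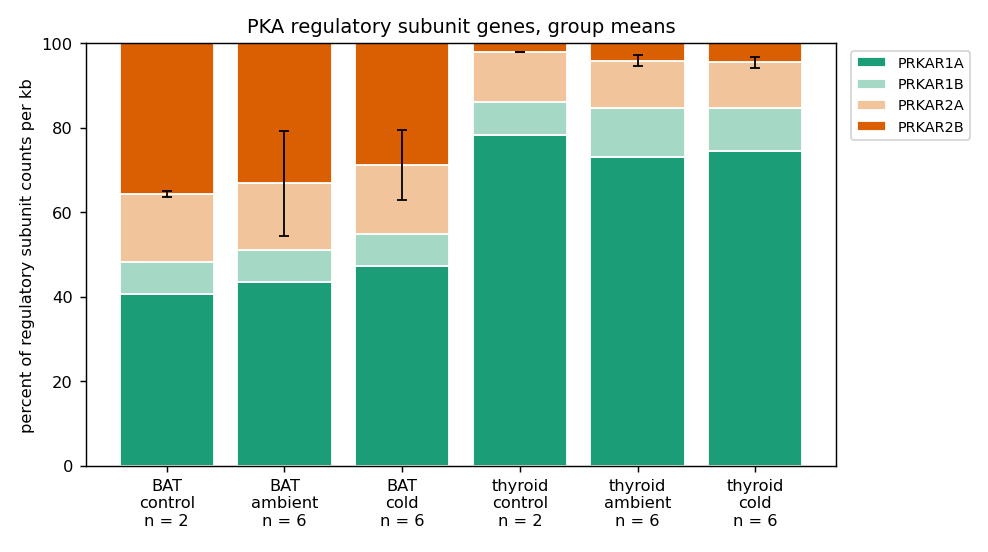
Mean share (percent) of each PKA regulatory subunit gene in the summed per-kb counts of the 4 genes, stacked by tissue and treatment group (2 control, 6 AT and 6 cold lambs), with error bars for the SD of the PRKAR2B share. The PRKAR2B segment takes 28.7 to 35.6% in the BAT groups and 2.07 to 4.49% in the thyroid groups.

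The catalytic subunits did not differ between the tissues at the threshold. PRKACA had 180 to 541 normalized counts in BAT and 265 to 1121 in thyroid tissue (log2FC −0.25, 95% interval −0.70 to 0.19, adjusted p = 0.326), and the highest thyroid value was that of AT lamb 240. PRKACA passed with median-of-ratios scaling (−0.51, adjusted p = 0.0257). PRKACB had 322 to 640 and 192 to 552 (log2FC 0.24, 95% interval −0.05 to 0.53, adjusted p = 0.152), a difference that reached the threshold without control lamb 246 (0.41, adjusted p = 0.0355). The ratio of PRKACA to PRKACB per kb was 2.46 ± 0.73 in BAT and 3.46 ± 1.72 in thyroid tissue, with a highest thyroid ratio of 8.73. GNAS differed by −0.02 (95% interval −0.34 to 0.30, adjusted p = 0.924).

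Both cyclases were higher in BAT. ADCY6, a calcium-inhibited adenylyl cyclase, had 1991, 4632 and 6302 normalized counts at the lowest, the median and the highest in BAT and 1019, 1244 and 2527 in thyroid tissue, with a higher BAT value in 14 of 14 lambs although the ranges overlap. The difference was 1.64 ± 0.16, or 3.12-fold (adjusted p = 1.16e-09). ADCY3 had 58.9, 182 and 258 in BAT and 51.8, 76.5 and 249 in thyroid tissue, higher in BAT in 13 of 14 lambs (0.81 ± 0.22, adjusted p = 0.00198). Raw ADCY3 counts were as low as 29 in a BAT library. Among the 10 adenylyl cyclase genes, ADCY4 made up 70.2% ± 6.33 of the per-kb counts in BAT and ADCY6 21.3% ± 5.97, while in thyroid tissue ADCY6 (29.5% ± 4.56), ADCY9 (26.8% ± 7.26) and ADCY4 (23.2% ± 4.15) had like shares. ADCY3 contributed 1.72% in BAT and 4.08% in thyroid tissue.

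The phosphodiesterases split. PDE4D had 51.8, 102 and 163 normalized counts at the lowest, the median and the highest in BAT and 161, 241 and 921 in thyroid tissue, lower in BAT in 14 of 14 lambs. Its log2FC was −1.91 ± 0.30, a 3.75-fold lower level in BAT (adjusted p = 4.00e-06). The highest thyroid value came from cold lamb 239. PDE4B had 88.5, 197 and 339 in BAT and 46.2, 82.3 and 258 in thyroid tissue. It was higher in BAT in 11 of 14 lambs and missed the threshold (0.46 ± 0.23, adjusted p = 0.0737), but passed it with lamb as a block (0.52, adjusted p = 0.0340), without AT lamb 240 (0.64, adjusted p = 0.00223) and without control lamb 246 (0.73, adjusted p = 0.0143). The ratio of PDE4B to PDE4D per kb was 6.13 in BAT, with a range of 1.78 to 13.4, and 0.992 in thyroid tissue, with a range of 0.384 to 1.45. These ratios depend on the annotated exon lengths. Without division by length, mean normalized counts of PDE4B and PDE4D were 194 and 105 in BAT, and 107 and 365 in thyroid tissue. Within the PDE4 family PDE4A took the largest mean share over the 14 libraries of each tissue (48.2% in BAT and 55.9% in thyroid tissue), PDE4C had 37.7 and 14.9%, PDE4B 12 and 14%, and PDE4D 2.10 and 15.2%. The order in BAT differed by group. In the 2 controls PDE4C was the larger (55.3% against 38.8% for PDE4A). PDE4A was the larger at AT (53.0 against 27.9%) and in the cold (46.5 against 41.6%).

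CREB1, the transcription factor at the end of the route, was modestly higher in BAT. It had 704, 978 and 1247 normalized counts in BAT and 534, 673 and 849 in thyroid tissue, higher in 14 of 14 lambs (0.49 ± 0.10, 1.41-fold, adjusted p = 7.00e-05). Here, as for ADCY6 and PDE4D, the share of all genes with 1 direction in all 14 lambs was not counted. The ADCY3, ADCY6, PRKAR2B and PDE4D calls held in every other processing that was run with the same threshold on p. With the study's added threshold of 1 on the absolute log2FC, which 39.2% of all genes passed, PRKAR2B, ADCY6 and PDE4D (3 of 10) remained called. The CREB1 call was lost with all 3 controls and trimmed-mean scaling (0.21, adjusted p = 0.0698).

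**Figure D3:**
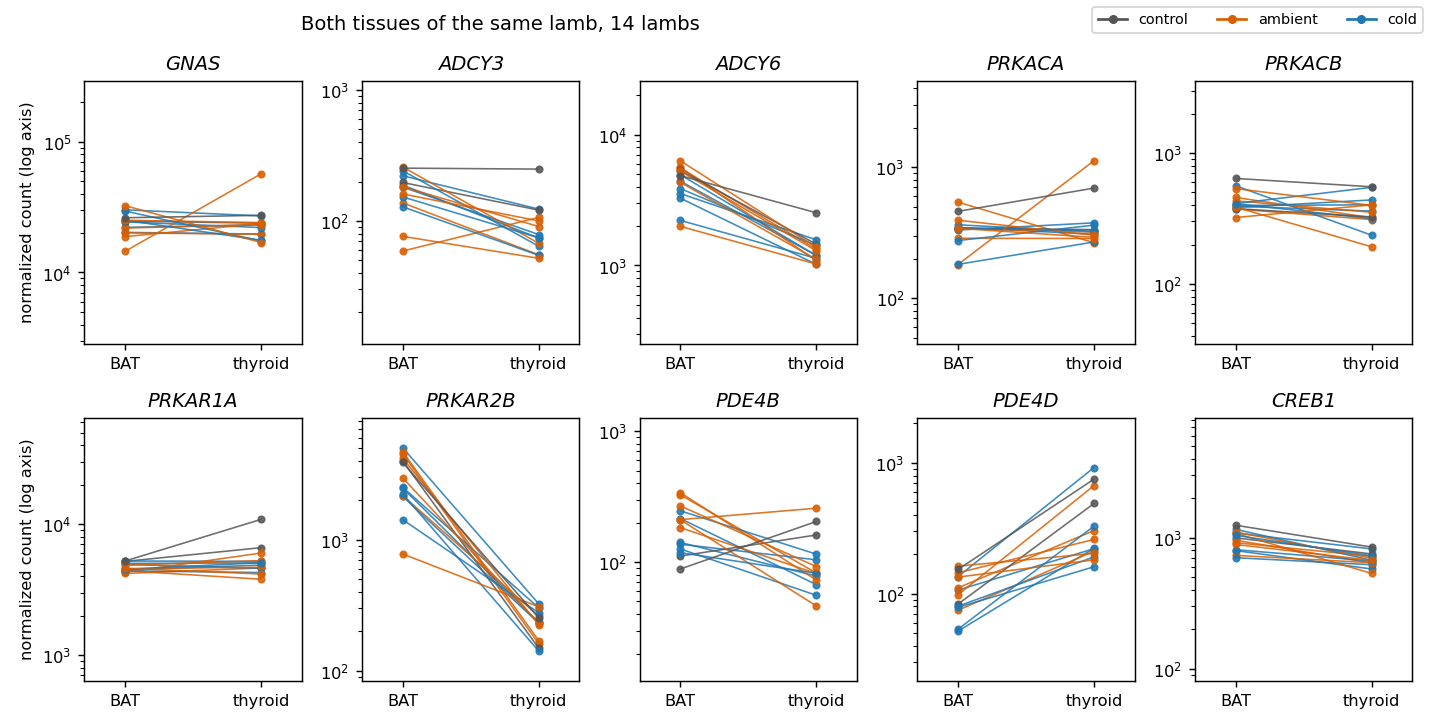
Normalized counts (log axis, scaled over 28 libraries) of each gene in BAT and thyroid tissue, with a line joining the 2 libraries of each of 14 lambs, coloured by treatment. The PRKAR2B, ADCY6 and CREB1 lines fall from BAT to thyroid tissue in every lamb and the PDE4D lines rise in every lamb.

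Among the other genes of the route, taken from 9 lists that held 157 genes of the table (members included), 127 non-members were tested between the tissues, of which 74 were higher and 27 lower in BAT, with a median difference of 0.53. Receptors coupled to the stimulatory G protein were the most one-sided list, with 16 of 19 higher in BAT and 1 lower, and a median of 2.48 against 0.24 over all genes. The beta-adrenergic receptors ADRB3 (6.00 ± 0.52) and ADRB1 (3.98 ± 0.36), which bind noradrenaline and adrenaline, were among them, and the lower one was TSHR, the thyrotropin receptor (−11.53 ± 0.36). PKA subunits and inhibitors showed 2 higher and 4 lower of 9: besides PRKAR2B, PRKAR2A was higher (1.02 ± 0.20), and the kinase inhibitors PKIA (−1.98 ± 0.65), PKIB (−1.57 ± 0.43) and PKIG (−0.63 ± 0.12) were lower along with PRKAR1A. Of 11 genes in the cyclase list, which holds the cyclase-associated proteins CAP1 and CAP2 beside the cyclases, 5 were higher and 2 lower, with ADCY4 at 3.83 ± 0.18 and ADCY9 at −2.48 ± 0.18. Of 15 phosphodiesterases that hydrolyse cAMP, 8 were higher and 4 lower. PDE3B, the insulin-activated phosphodiesterase of fat cells, stood at 4.20 ± 0.25. The G protein list had 8 higher and 5 lower of 18, anchoring proteins 10 and 6 of 17, other cAMP effectors 7 and 1 of 10, the CREB family 10 and 4 of 21, and cAMP-induced target genes 13 and 4 of 22. Each of these adjusted p-values was taken over all 17017 genes, and 71.0% of all genes differed, so the counts describe the lists and set none of them apart.

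In BAT, 1 of the 10 genes differed from the controls in lambs kept at AT. PDE4B had 69.5 normalized counts (scaled over the 14 BAT libraries) in control lamb 237 and 55.4 in control lamb 246, against 116 at the lowest, 146 at the median and 203 at the highest in the 6 AT lambs. All AT libraries lay above both controls, as for 8.97% of genes in that direction, and lamb 238, the control left out, had 55.9. The log2FC was 1.32 ± 0.33, a 2.50-fold higher level (adjusted p = 0.0227). The background in this comparison was 9.19% of 14901 genes called, and 3.09% of the 14901 were called higher, so 1 of 10 is close to the background share. The call was lost when the cold libraries were kept out of the fit (1.29, adjusted p = 0.0518). These are low counts, with 49 raw reads in the lowest BAT library used. In the same groups the brown adipocyte marker sum was lower at AT (2318 to 28531) than in the controls (38957 and 48155) and the fibroblast sum was higher (51588 to 304350 against 43200 and 45089). Their part in the PDE4B result was not tested.

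In cold lambs PDE4B had 72.1, 89.8 and 148 normalized counts at the lowest, the median and the highest, again with every library above both controls, as for 8.89% of genes. The log2FC was 0.71 ± 0.32, which did not pass after adjustment over all genes (adjusted p = 0.257). No member was called in cold BAT, where 1.46% of genes were. The other 9 genes stood between −0.58 (PRKAR2B) and −0.02 (GNAS) in the cold, and between −0.67 (ADCY3) and −0.02 (PDE4D) at AT, all below 0 in this fit and none called, beside medians over all genes of −0.10 and −0.03. Under other scalings, tests or sample sets the sign turned for GNAS, ADCY3, ADCY6, PRKACB and CREB1 in the cold. At AT it turned for ADCY6, PRKACB, PDE4D and CREB1. CREB1 reached 0.46 in the cold and 0.47 at AT, while PRKAR2B reached −1.47 and −1.20. Of the 9 genes, PRKAR1A was the most evenly expressed. It had 3246 and 3270 normalized counts in the controls, 2762 to 3238 in the cold and 2520 to 2912 at AT, so no treated library reached the controls, as for 15.7 and 15.3% of genes in that direction. Its differences were small, −0.13 ± 0.17 in the cold and −0.25 ± 0.16 at AT (adjusted p = 0.718 and 0.348). PRKAR2B was the least even, with 2504 and 2435 in the controls, 920 to 3258 in the cold and 468 to 2977 at AT. Its 95% intervals, −1.58 to 0.43 and −1.34 to 0.70, leave room for changes of either sign.

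Between cold and AT lambs none of the 10 genes was called in BAT, in a comparison in which 0.309% of genes were called. PDE4B came nearest, with cold below AT (−0.61 ± 0.22, adjusted p = 0.290) and the groups overlapping between 116 and 148 normalized counts. Its nominal 95% interval was −1.04 to −0.19, edgeR's unadjusted p was 0.0115, and 4 of 6 cold libraries lay below every AT library. ADCY6 had 1427 to 3185 in the cold and 1195 to 3783 at AT (−0.35, 95% interval −0.83 to 0.13). The interval was narrowest for PRKAR1A (−0.11 to 0.35) and widest for PRKAR2B (−0.99 to 0.48).

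**Figure D4:**
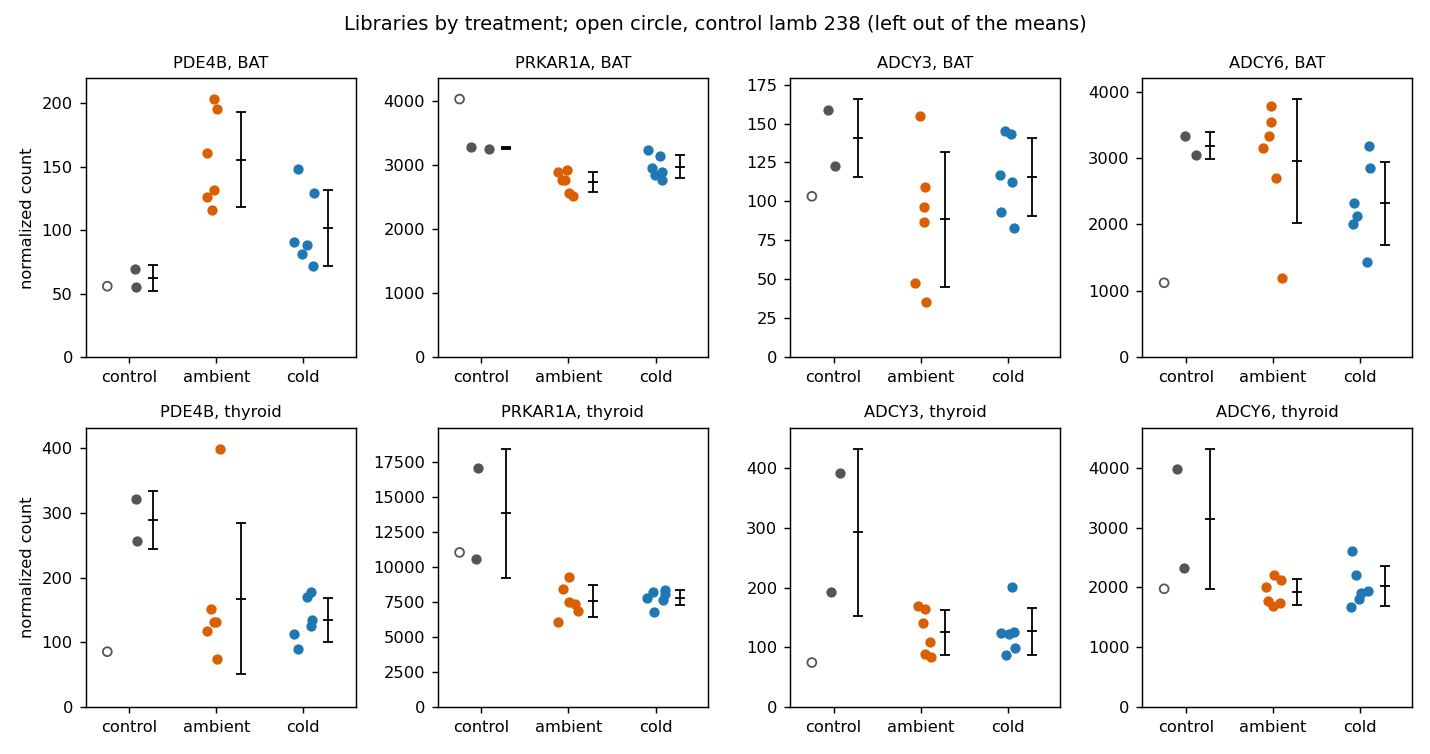
Normalized counts (scaled within each tissue) of PDE4B, PRKAR1A, ADCY3 and ADCY6 by treatment group in BAT (upper row) and thyroid tissue (lower row), each point 1 lamb and each bar the mean ± SD of 2 control or 6 treated lambs, with control lamb 238 as an open circle outside the means. Both PDE4B controls in BAT (55.4 and 69.5) lie below every AT lamb, and in thyroid tissue control lamb 246 lies far above lamb 237 for PRKAR1A, ADCY3 and ADCY6.

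In thyroid tissue, 3 of the 10 genes were downregulated in cold lambs and the same 3 at AT relative to the shared controls: ADCY3, ADCY6 and PRKAR1A. In these comparisons 19.3% of 16118 genes were called in the cold and 21% at AT. Those called lower made up 16.9 and 18.8% of the genes tested, and the median log2FC over all genes was −0.28 in each. With trimmed-mean (TMM) scaling that median moved to 0.02 and 0.05, so part of every downward value below is shared by the whole transcriptome under the study's reference-gene scaling. The member share of 3 in 10 is read against that background. With the threshold of 1 on the absolute log2FC, ADCY3 alone remained called in each, beside 8.04% of all genes in the cold and 7.80% at AT.

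PRKAR1A had 10561 normalized counts (scaled over the 14 thyroid libraries) in control lamb 237 and 17100 in control lamb 246, against 6819, 7926 and 8347 at the lowest, the median and the highest in the cold and 6061, 7429 and 9310 at AT. No treated library reached a control, as for 28.5% of genes in the cold and 21.7% at AT in that direction, and lamb 238 had 11044. The log2FC was −0.82 ± 0.18 in the cold (adjusted p = 0.00830) and −0.87 ± 0.18 at AT (adjusted p = 0.00540). TMM scaling gave −0.50 (adjusted p = 0.0353) and −0.52 (adjusted p = 0.0314). With lamb 238 in the place of control lamb 246 it was −0.47 (adjusted p = 0.0576) and −0.51 (adjusted p = 0.0456), so the size, and in the cold the call, rested partly on that control. The call at AT was also lost with only the AT and control libraries in the fit (−0.88, adjusted p = 0.0514). The ratio of PRKAR1A to PRKAR2B per kb was 38.5 and 37.2 in the controls and 11.7 to 31.1 in the 12 treated lambs.

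ADCY3 and ADCY6 rested on the controls to a greater degree. ADCY3 had 193 and 392 normalized counts in control lambs 237 and 246, 87.3 to 201 in the cold and 82.8 to 169 at AT, so cold lamb 235 (201) lay above a control. Lamb 238, left out, had 74.3, below every treated lamb. Its log2FC was −1.21 ± 0.35 in the cold (adjusted p = 0.0291) and −1.22 ± 0.35 at AT (adjusted p = 0.0256). ADCY6 had 2320 and 3978 in the controls, 1676 to 2614 in the cold and 1681 to 2208 at AT, with differences of −0.64 ± 0.20 (adjusted p = 0.0371) and −0.71 ± 0.20 (adjusted p = 0.0208). With lamb 238 in the place of lamb 246, ADCY3 stood at −0.09 (adjusted p = 0.913) and −0.10 (adjusted p = 0.906), and ADCY6 at −0.09 (adjusted p = 0.774) and −0.16 (adjusted p = 0.594). Their calls were lost as well under TMM scaling, where ADCY3 was −0.88 in the cold (adjusted p = 0.106) and ADCY6 −0.31 (adjusted p = 0.256), and with all 3 controls (−0.80, adjusted p = 0.187, and −0.45, adjusted p = 0.132). Control lamb 237 and AT lamb 240, the thyroid libraries with the most muscle transcripts, were also left out together, with lamb 238 in the place of lamb 237. ADCY3 was then −0.88 in the cold and −0.92 at AT (adjusted p = 0.212 and 0.203) and ADCY6 −0.55 and −0.63 (adjusted p = 0.105 and 0.0736). PRKAR1A kept its calls there (−0.84, adjusted p = 0.00379, and −0.94, adjusted p = 0.00265). Without lamb 240 alone, and so with controls 237 and 246, both cyclases stayed called. ADCY3 was −1.21 and −1.26 (adjusted p = 0.0185 and 0.0162) and ADCY6 −0.64 and −0.73 (adjusted p = 0.0248 and 0.0132). Beside these values, control lamb 246 had the highest follicular marker sum of the thyroid libraries used (3751600, against 1806300 in lamb 237 and 860170 to 1668600 in treated lambs), and both controls had a lower fibroblast sum (7854 and 9528) than the treated lambs (17815 to 93548). What these contribute to the 3 genes was not tested.

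The phosphodiesterases and the catalytic subunit PRKACA moved with lamb 240. PDE4B had 257 and 321 normalized counts in the controls and 89.0 to 178 in the cold, and at AT 73.8 to 152 in 5 lambs and 399 in lamb 240. With all 14 lambs the differences were −1.10 (adjusted p = 0.0993) in the cold and −0.79 (adjusted p = 0.228) at AT. Without lamb 240, they were −1.11 (adjusted p = 0.0105) and −1.26 (adjusted p = 0.00511), and PDE4B was called in both. PRKACA had 533 and 1090 in the controls, 429 to 603 in the cold, 422 to 511 in 5 AT lambs and 1736 in lamb 240. Its differences were −0.62 (adjusted p = 0.362) and −0.25 (adjusted p = 0.724) with lamb 240, and −0.62 (adjusted p = 0.0362) and −0.79 (adjusted p = 0.0115) without it. The sign of the PRKACA value at AT turned under TMM scaling (0.08). PDE4D had 782 and 1181 in the controls, 257 to 540 in 5 cold lambs with 1426 in lamb 239, and 290 to 486 in 5 AT lambs with 1037 in lamb 240. It was not called (−0.85, adjusted p = 0.325, and −1.02, adjusted p = 0.225), and in the cold it was called without lamb 239 (−1.43, adjusted p = 0.0286). Skeletal muscle genes stood at 2245800 in lamb 240 and parathyroid and C cell markers at 119120 in lamb 239, and their part in these values was not tested. AT lamb 241 had a higher parathyroid and C cell sum (167260) with PDE4D at 327.

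GNAS, PRKACB, PRKAR2B and CREB1 were not called in thyroid tissue under the main fit. GNAS had 38021 and 43024 in the controls, 28174 to 41863 in the cold, 27782 to 38421 in 5 AT lambs and 87645 in lamb 240 (−0.25 in the cold and 0.10 at AT). Without lamb 240 the GNAS value at AT was −0.23 (adjusted p = 0.348). PRKAR2B stood above 0 in each (0.35, 95% interval −0.27 to 0.98, and 0.18, 95% interval −0.44 to 0.80). CREB1 had the narrowest intervals, −0.51 to 0.10 in the cold and −0.59 to 0.02 at AT. Between cold and AT no gene of the 16118, and so no member, passed in thyroid tissue with edgeR; 870 had an unadjusted p under 0.05, and DESeq2's Wald test called 4 genes, none of them a member. Across the 10, the cold minus AT values ran from −0.36 (PRKACA) to 0.24 (PRKACB), and the narrowest intervals were those of PRKAR1A (−0.21 to 0.30) and CREB1 (−0.14 to 0.30).

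**Figure D5:**
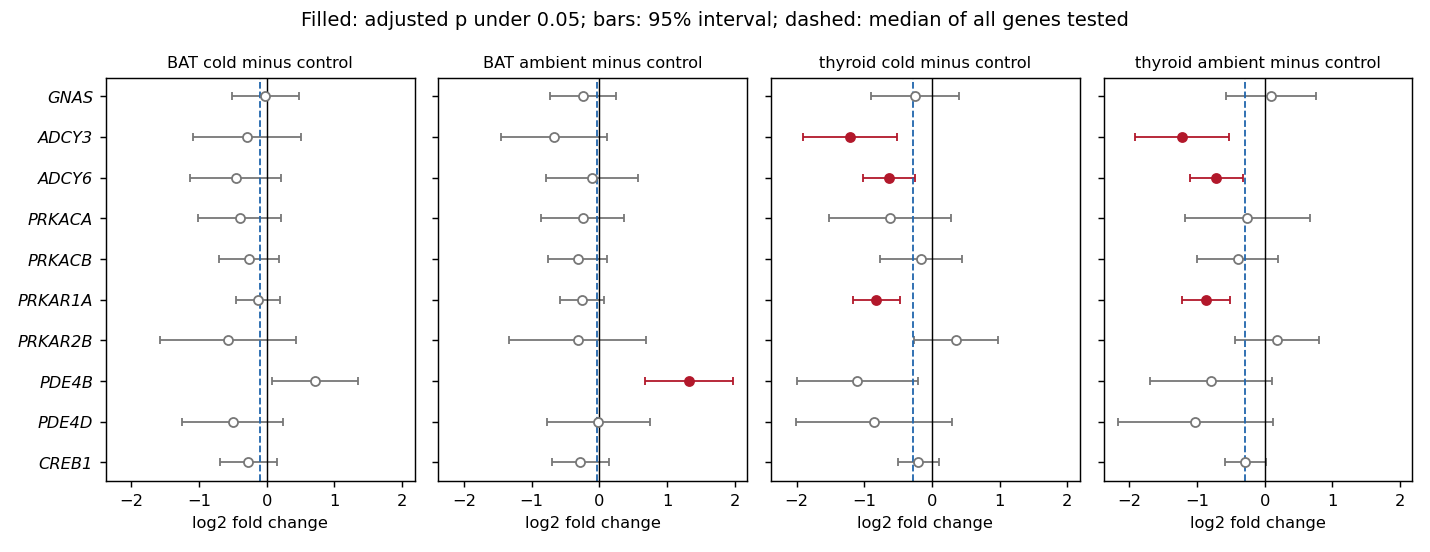
Log2FC of the 10 genes against the controls in cold and AT lambs, for BAT and thyroid tissue, with bars for the nominal 95% interval, filled points for adjusted p under 0.05 and a dashed line at the median of all genes tested. PDE4B lies above 0 in BAT (1.32 at AT) and below 0 in thyroid tissue (−0.79 at AT), and ADCY3, ADCY6 and PRKAR1A are filled in thyroid tissue.

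Whether treatment changed a gene differently in the 2 tissues was tested as an interaction over 28 libraries, again with no term for lamb. No member passed, in a test in which 0.975% of genes did, with a median over all genes of 0.29. PDE4B gave the largest value (2.0 ± 0.58, adjusted p = 0.0865), from higher levels in treated BAT and lower levels in treated thyroid tissue than in the respective controls. It passed with DESeq2's Wald test (adjusted p = 0.0263), without lamb 240 (2.27, adjusted p = 0.00801) and without lambs 237 and 240 (2.0, adjusted p = 0.0323). PRKAR1A had the next lowest p (0.69 ± 0.22, adjusted p = 0.117), and passed with DESeq2 (adjusted p = 0.0409) and without lamb 240 (0.74, adjusted p = 0.0484). For cold against AT no gene at all passed the interaction test with edgeR, although 1340 had an unadjusted p under 0.05 and DESeq2 called 26, and the members ran from −0.68 (PDE4D) to 0.56 (GNAS).

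Of the other genes of the route, 121 non-members were tested in BAT. In the cold 2 were called, both lower: the anchoring proteins AKAP1 (−3.71 ± 0.75, adjusted p = 0.0323), which holds PKA at mitochondria, and AKAP12 (−1.72 ± 0.35, adjusted p = 0.0317), beside 1.46% of all genes. The count in the cold was 0 without cold lamb 244, 1 without cold lamb 232, 234 or 235 or with all 3 controls, and 1 higher and 4 lower with DESeq2's Wald test. At AT 3 were higher and 13 lower, with a median of −0.23 against −0.03 over all genes, of which 9.19% were called (3.09% higher). AKAP1 (−4.69 ± 0.76) and AKAP12 (−1.99 ± 0.35) were lower there too, among 5 lower and 1 higher of 17 anchoring proteins, and AKAP7 was the higher one (1.71 ± 0.44). Among 15 phosphodiesterases, PDE1A was higher with PDE4B (1.35 ± 0.38) and PDE4C was lower (−1.49 ± 0.42). The cAMP-activated exchange factor RAPGEF4 (−1.64 ± 0.32), the receptors GIPR (−1.38 ± 0.29) and ADORA2A (−1.21 ± 0.29) and the nuclear receptor gene NR4A3 (−1.90 ± 0.52) were lower, and the gluconeogenic and glyceroneogenic enzyme gene PCK1 was higher (3.49 ± 1.03). The beta-adrenergic receptor gene ADRB3 was not called in BAT (−1.24 ± 0.57 in the cold and −0.87 ± 0.58 at AT). Counts in BAT at AT moved with the processing: over all 131 listed genes tested they were 4 higher and 13 lower, 8 and 12 with TMM scaling, 8 and 9 with all 3 controls, and 7 and 6 with lamb 238 in the place of lamb 246.

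In thyroid tissue 1 of 120 non-members was higher and 28 lower in the cold, and 1 higher and 31 lower at AT, with medians of −0.39 and −0.33 against −0.28 over all genes. Over all genes tested, 16.9% were called lower in the cold and 18.8% at AT, and the list counts that follow are read against these shares. The CREB family and its coactivators and regulators had 8 lower of 21 in the cold and 10 at AT. SIK1, the salt-inducible kinase that is itself induced by CREB and restrains its coactivators, was lower by a similar amount in each (−2.23 ± 0.30, adjusted p = 0.00114, and −2.11 ± 0.30, adjusted p = 0.00117). CREB3L1, a membrane-bound transcription factor of the secretory pathway, stood at −1.84 ± 0.24 and −1.87 ± 0.24, and CREM, a close relative of CREB1, at −1.07 ± 0.29 and −0.91 ± 0.29. Of 21 cAMP-induced target genes 7 were lower in the cold and 8 at AT, among them ATF3 (−2.79 ± 0.68 and −2.05 ± 0.69), BTG2 (−1.40 ± 0.23 and −1.11 ± 0.23), IRS2 (−1.21 ± 0.26 and −1.59 ± 0.26) and PPARGC1A (−1.23 ± 0.23 and −1.20 ± 0.23). The medians of this list, −0.81 and −0.91, were the lowest of the 9 lists. Of 15 phosphodiesterases 6 were lower in the cold and 3 at AT, with PDE1C (−1.17 ± 0.25 and −1.30 ± 0.25) and PDE10A (−1.32 ± 0.33 and −1.09 ± 0.33) in each. The gene that was higher in each was ARRB2, the beta-arrestin that uncouples receptors from G proteins (0.67 ± 0.21 and 0.79 ± 0.21), and TSHR was not called (0.13 ± 0.31 and −0.16 ± 0.30). Over all 130 listed genes tested, members included, the counts of 1 higher and 31 lower in the cold became 2 and 9 with TMM scaling and 0 and 15 with lamb 238 in the place of lamb 246, and those of 1 and 34 at AT became 2 and 10, and 2 and 19. Between cold and AT none of the listed genes was called in either tissue as fitted here. In BAT 2 were called higher in the cold with TMM scaling, with median-of-ratios scaling, with DESeq2's Wald test and without AT lamb 236, and 1 was called lower without AT lamb 245.

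The genes whose levels across the 14 libraries of a tissue ran most like those of the called members are given as a description, since the libraries share groups, depth and scaling. PDE4B in BAT ran most like SMOC2 (Pearson r = 0.914, Spearman rho = 0.930), MBP (0.899 and 0.930) and IQGAP2 (0.899 and 0.899). In thyroid tissue, PRKAR1A ran most like SRPRB (r = 0.989, rho = 0.969), SART1 (0.984 and 0.925) and GORASP2 (0.980 and 0.925). ADCY3 ran most like SMG6 (r = 0.967, rho = 0.903), ZNF526 (0.953 and 0.925) and RAB11FIP5 (0.942 and 0.899), and ADCY6 most like BRI3 (r = 0.966, rho = 0.938), RNF216 (0.953 and 0.934) and ACSS1 (0.936 and 0.763). Control lamb 246 is the highest point for the 3 thyroid genes, and in ACSS1 the rank measure is well below the linear one.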

How the data were processed

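BAT and thyroid RNA of 15 lambs was sequenced by the authors as paired 150-base reads on a BGISEQ-500 after oligo(dT) selection. They trimmed reads with Trimmomatic 0.39, mapped them with STAR 2.7.7a to Oar_rambouillet_v1.0 and deposited raw counts per gene from featureCounts (Subread 2.0.0), multi-mapping reads included, so near-identical copies can share reads. The strand setting is not given in the sources used here. The labels do not say which control the authors left out. It was taken to be lamb 238, because the counts of lambs 237 and 246, but not those of lamb 238, are proportional to columns of the study's supplementary table of normalized counts. There were 0 columns of other samples.

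From the counts, 4 rows with 2 repeated names were left out, and a gene entered a fit if 10 or more of its libraries held 10 or more reads. All 10 members passed in each tissue. Size factors were DESeq2 1.42.0 size factors of 3 reference genes, ACTB, RPL19 and HUWE1, as the study's methods state, and entered as offsets in edgeR 4.0.16 (R 4.3.3, robust quasi-likelihood test). Each tissue was fitted on 14 libraries, and both on 28 for contrasts between tissues, with no term for lamb in the main fit. P-values were Benjamini-Hochberg adjusted over all genes tested, with a call at 0.05. SE is the absolute log2FC divided by the square root of F, and the 95% interval is ± 1.96 SE. This normal multiplier makes the intervals narrower than the F test implies, so 95% is nominal. For PDE4B between tissues the interval (0.01 to 0.91) leaves out 0, while edgeR's unadjusted p was 0.0542. ACTB itself was lower in treated BAT (20616 ± 3145 at AT and 25161 ± 4696 in the cold, SD, n = 6) than in the controls (32767 ± 2362, n = 2). Library size factors were 0.538 to 1.84 in BAT and 0.741 to 1.21 in thyroid tissue.

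Lamb numbers in the titles pair the tissues, because each animal gave both. Deviations from group means correlated between the 2 libraries of a lamb at 0.0125 to 0.353 (median 0.221, above 0 in 14 of 14 lambs, over 15076 genes). Control lambs 237 and 246 have the same value (0.103) by construction, since deviations from a mean of 2 mirror each other. No 2 libraries of a group had counts within sampling noise. Members and gene lists were chosen with earlier results of these data known. The text gives all 10 members, from each list per comparison at most the 4 called genes with the largest absolute log2FC, and the 3 genes most correlated with each called member on log2(normalized count + 1). ADRB1 and PKIG between tissues, the uncalled ADRB3 and TSHR within a tissue, and a listed gene's value in the comparison where it was not among the 4, were added after their values were seen. Alternatives were other scalings, filters, tests and sample sets, including each lamb left out (for a control, lamb 238 took its place). The fit was tested on simulated counts. Coordinates come from the annotation columns of the deposited counts, and gene ID and names from RefSeq's table for ARS-UI_Ramb_v3.0, with 22250 of the names found in it. A listed receptor gene is not reported here.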

Additional observations from a re-analysis of the deposited data

Results flagged for a closer look

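In 8 of 40 groups of 6 lambs (10 genes, cold and AT, both tissues), 1 lamb lay apart from the rest by Dixon's test at the 95% level. Chance alone gives this in about 1 in 20 groups if the values are normally distributed and the groups independent. The counts were not log-transformed and the groups share libraries, so that rate does not apply directly here. Values are normalized counts scaled within the tissue. The thyroid library of AT lamb 240 gave 4 of the 8: GNAS at 87645 (the other 5 lambs 27782 to 38421), PRKACA at 1736 (422 to 511), PDE4B at 399 (73.8 to 152) and PDE4D at 1037 (290 to 486). That library also held 2245800 normalized counts over 9 skeletal muscle genes, where the other AT thyroid libraries had 152 to 719, and the part of muscle RNA in the 4 values was not tested.

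In the thyroid tissue of cold lamb 239, PDE4D stood at 1426 (the other 5 lambs 257 to 540), beside a parathyroid and C cell marker sum of 119120 and a skeletal muscle sum of 2613, whose part was not tested. AT lamb 241 had a higher parathyroid and C cell sum (167260) with PDE4D at 327. ADCY3 in the thyroid tissue of cold lamb 235 was 201 (87.3 to 126). In BAT, PRKACB in cold lamb 239 was 338 (247 to 257) and PRKAR2B in cold lamb 232 was 3258 (920 to 1624).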

How the results depend on the processing

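Over 90 member values (10 genes in 9 comparisons) and 24 alternatives in each comparison, 13 were called in the fit described and 23 there or under an alternative. Of the 13 calls, 4 held under every alternative with the same threshold on p (PRKAR2B, ADCY6, ADCY3 and PDE4D between the tissues) and 0 changed sign; of the 67 values called nowhere, 34 changed sign under some alternative. In thyroid tissue the 3 members called became 1 in the cold and 1 at AT under each of TMM scaling, median-of-ratios scaling, all 3 controls, all 3 controls with TMM scaling, removal of lambs 237 and 240 (chosen after seeing the data) and a threshold of 1 on log2FC, and 0 at AT with the 2 groups alone. Leaving out 1 lamb gave 0 to 5 in the cold and 1 to 5 at AT, with 0 (cold) and 1 (AT) without lamb 246, 1 and 1 without lamb 237 (lamb 238 in the place of either), and 5 and 5 without lamb 240. In BAT at AT the 1 call became 0 with the 2 groups alone. Between tissues 6 calls became 3 with the threshold on log2FC and 6 to 7 with 1 lamb left out. The interaction of tissue with treatment had 2 members with DESeq2, 1 without lambs 237 and 240, and 0 to 2 with 1 lamb left out.

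Of the 23 values called in the fit described or under an alternative, 4 changed sign, none of them called in the setting that turned it: PRKACA in thyroid tissue in the cold (0.10 with all 3 controls and TMM; −0.66 to 0.59 with 1 lamb left out), PRKACA at AT (0.0833 with TMM, 0.0833 with median-of-ratios, 0.19 with all 3 controls, 0.46 with all 3 and TMM; −0.79 to 0.95 with 1 lamb left out), PRKACA between tissues (0.23 without lambs 237 and 240; −0.35 to 0.24 with 1 lamb left out) and PRKACB between tissues (−0.0423 with median-of-ratios). The cause was not tested. With lamb as a replicate block, PDE4B between the tissues was called (0.52, adjusted p = 0.0340), making 7 members, and no other member's call changed. Calls over all genes ranged over all alternatives from 105 to 1650 in cold BAT (218 as reported), 535 to 2864 in BAT at AT (1369), 0 to 261 for cold against AT in BAT (46), 1422 to 4644 in cold thyroid tissue (3111), 1027 to 5286 at AT (3386) and 93 to 1308 for the interaction (166). Under TMM, higher and lower calls were 628 and 802 against 381 and 2730 in cold thyroid tissue, 650 and 759 against 361 and 3025 at AT, 280 and 200 against 89 and 129 in cold BAT and 871 and 881 against 460 and 909 in BAT at AT. Median-of-ratios scaling gave 5866 and 6494 against 7571 and 4519 between tissues. With 2 controls and raw counts as low as 18 (PDE4D), 49 (PDE4B) and 29 (ADCY3) in BAT, changes of these genes are poorly resolved.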

Other observations

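Control lamb 238, which entered no main comparison, differed from the other controls in several members, in normalized counts scaled within the tissue. In BAT, PRKAR2B was 7014 (2504 and 2435 in lambs 237 and 246), PDE4D was 148 (52.1 and 96.0), ADCY6 was 1121 (3336 and 3040) and CREB1 was 265 (624 and 780), beside an adipocyte marker sum of 434150 and a brown adipocyte sum of 143700 on the scale over all libraries. In thyroid tissue, PRKACA was 168 (533 and 1090), PRKACB was 168 (519 and 869), ADCY3 was 74.3 (193 and 392) and PDE4B was 85.4 (257 and 321), while GNAS (45468) and PRKAR1A (11044) lay near lambs 237 and 246. In BAT, PDE4B (55.9) lay within 1 count of lamb 246 (55.4). The ratio of PRKAR1A to PRKAR2B per kb was 0.497 in the BAT of lamb 238, below the 0.768 to 5.12 of the other 14 lambs, and 37.8 in its thyroid tissue, between the 38.5 and 37.2 of the other controls.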
